A study of Mus musculus with 6 samples.

Results

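The SIBLING genes and other genes of the dentin matrix were described here in the base of the mouse incisor, where the tooth keeps growing, as a set of 10 genes named by symbol: Dspp, Dmp1, Ibsp, Mepe, Spp1, Bglap, Bglap2, Sparc, Nes and Ifitm5. All 10 were found among the 25703 genes of the count table, and 9 of them passed the filter on low counts, as did 19613 genes in all. The study compared 3 libraries labelled Gli1-CreER;Arid1a fl/fl (Arid1a cKO) with 3 libraries labelled Arid1a fl/fl (control), to learn what deleting Arid1a in Gli1-expressing cells does to renewal of the incisor. RNA came from the proximal region of the tooth. Mice of both genotypes were C57BL/6, 6 weeks old and homozygous for the floxed Arid1a allele, and the label for tamoxifen is the same for both, 1.5 mg per 10 g of body weight on each of 3 days at 1 month of age. Gli1-CreER is a recombinase that tamoxifen activates in cells that express Gli1, so recombination is limited to those cells and their progeny. By their labels the controls carry no CreER. Arid1a encodes a subunit of a SWI/SNF chromatin remodelling complex.

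Dentin is laid down by odontoblasts, which secrete collagen and acidic phosphoproteins that bind calcium and guide mineral growth. The SIBLING family (small integrin-binding ligand, N-linked glycoproteins) comprises the genes Dspp, Dmp1, Ibsp, Mepe and Spp1, which lie side by side in the genome, and several of its proteins are cleaved by BMP1-type proteases and phosphorylated by the kinase FAM20C. Osteocalcin and osteonectin are further matrix proteins of bone and dentin, nestin is an intermediate filament protein of odontoblasts, and the IFITM5 protein sits in the membrane of mineralizing cells.

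One of the 9 tested genes, Nes, fell in Arid1a cKO, 0 rose and 8 did not pass the test. Among all genes tested, 3.96% passed in either direction and 2.46% passed as lower (edgeR quasi-likelihood test, Benjamini-Hochberg adjusted p under 0.05 over 19613 genes). The 2 genotypes did not overlap in 1 of the 9 genes, Nes, and in 29.1% of all genes tested. The median log2 fold change of the 9 genes was -0.15, and that of all genes tested was 0.0043. For Dspp, Dmp1, Spp1, Bglap, Bglap2 and Sparc, the highest library had 1.08 to 1.64 times the level of the lowest in Arid1a cKO, and 1.89 to 3.78 times in control. For Ibsp, Nes and Ifitm5, the other tested genes, it had 1.14, 1.41 and 1.89 times in Arid1a cKO, and 1.49, 1.35 and 1.90 times in control. The SD of log2 CPM was smaller in Arid1a cKO in 7 of the 9 genes and in 48.1% of all genes tested.

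The libraries held 37896883, 37908478 and 29922013 counts in Arid1a cKO replicates 1 to 3, and 32677240, 27324259 and 27300932 in control replicates 1 to 3. Replicate numbers name libraries and pair none. Whether each library is a separate animal is not said in the labels, so the p-values measure only how far these samples lie apart, and part of that may be technical. Arid1a (chromosome 4, 133679008 to 133756769, mm10, minus strand) had 136, 139 and 145 CPM (counts scaled to TMM-adjusted library size) in Arid1a cKO, against 222, 249 and 223 CPM in control (log2 fold change -0.72, SE 0.0677, edgeR adjusted p = 0.00802). Markers of dental mesenchyme (9 genes) were present and summed to between 1403 and 1621 CPM in Arid1a cKO and between 1470 and 1737 CPM in control. One of the 9, Gli1, the gene that drives CreER, fell: it had 106, 107 and 107 CPM in Arid1a cKO, against 137, 160.1 and 163 CPM in control (log2 fold change -0.52, edgeR adjusted p = 0.0162). Leaving out control replicate 2, control replicate 3 or Arid1a cKO replicate 3 ended that call (edgeR adjusted p up to 0.0674). By their labels only the Arid1a cKO mice carry CreER. For Gli1 and for every other gene, an effect of the CreER driver and one of Arid1a loss therefore cannot be told apart. Dental epithelium markers (8 genes) summed to 941 to 1601 CPM in Arid1a cKO and 706 to 1141 CPM in control. All 8 had a positive log2 fold change, with a median of 0.53, and 1 of them, Epcam, rose (edgeR adjusted p = 0.0199), a call that ended without any 1 control or without Arid1a cKO replicate 3 (up to 0.0770). Their part in the levels of the dentin matrix genes was not tested. Enamel organ was present as well, with 6 ameloblast markers at 549 to 1585 CPM in Arid1a cKO and 549 to 3545 CPM in control, the highest sum being that of control replicate 3. In RNA of a whole tissue, fewer cells of a type and less RNA per cell cannot be told apart.

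Part of the osteocalcin reads cannot be assigned, which the coding sequences of the 3 neighbouring genes show. They are printed from the GENCODE M21 annotation of GRCm38 (mm10), 5′ to 3′ along the minus strand of chromosome 3, in lower case, with capitals where a base differs from Bglap. The genes lie at chr3:88383501-88384464 (Bglap), chr3:88377736-88378699 (Bglap2) and chr3:88368616-88372743 (Bglap3), and introns are left out.
Bglap: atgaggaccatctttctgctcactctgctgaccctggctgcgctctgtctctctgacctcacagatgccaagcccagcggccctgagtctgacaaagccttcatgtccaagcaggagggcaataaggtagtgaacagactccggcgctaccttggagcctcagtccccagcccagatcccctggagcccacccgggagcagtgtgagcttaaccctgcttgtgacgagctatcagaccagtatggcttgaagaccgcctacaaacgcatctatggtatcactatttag
Bglap2: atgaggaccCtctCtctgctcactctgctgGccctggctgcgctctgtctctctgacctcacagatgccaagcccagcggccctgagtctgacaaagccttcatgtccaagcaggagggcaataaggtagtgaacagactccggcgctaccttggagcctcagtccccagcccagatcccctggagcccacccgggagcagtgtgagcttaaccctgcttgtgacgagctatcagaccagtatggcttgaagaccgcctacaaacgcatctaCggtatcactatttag
Bglap3: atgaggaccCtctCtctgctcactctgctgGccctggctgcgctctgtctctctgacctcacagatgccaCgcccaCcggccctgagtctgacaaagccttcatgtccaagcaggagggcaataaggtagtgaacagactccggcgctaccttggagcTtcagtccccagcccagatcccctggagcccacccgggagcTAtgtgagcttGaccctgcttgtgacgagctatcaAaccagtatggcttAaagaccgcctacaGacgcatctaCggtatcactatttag
Each coding sequence is 288 bases long, and Bglap2 differs from Bglap at 4 of them (98.6% identity). Bglap3, which is not among the 10 genes, differs from Bglap at 13 bases (95.5% identity) and from Bglap2 at 9. Of the 544 windows of 75 bases, the length of a read, in the exons of Bglap, 272 also occur in another gene, chiefly Bglap2. The share is 73.3% in Bglap2 and 5.02% in Bglap3. The split of osteocalcin counts between Bglap and Bglap2 is therefore uncertain, and their sum is given as well. Spp1 shares 8.55% of its windows with Gm42793 and Ifitm5 shares 22.6% with Gm45717, an overlapping gene in each case. Dspp, Dmp1, Ibsp, Mepe, Sparc and Nes share none.

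The SIBLING genes stand in a row on the plus strand of chromosome 5. Dspp (104170712 to 104180127) encodes the precursor of dentin sialoprotein and dentin phosphoprotein, the chief phosphoproteins that odontoblasts secrete. Its level was 4521, 3412 and 3820.2 CPM in Arid1a cKO replicates 1 to 3, against 4122, 1260.2 and 4332 CPM in control replicates 1 to 3. Control replicate 2 was low, the other two controls lay within the range of the Arid1a cKO libraries, and the groups overlapped. The means were 3918 ± 561 CPM in Arid1a cKO and 3238 ± 1716 CPM in control (SD, n = 3 each), with a log2 fold change of 0.27 (SE 0.447, edgeR adjusted p = 0.770). Without control replicate 2 the sign turned, to -0.10 (edgeR adjusted p = 0.788).

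Dmp1 (104202613 to 104214102) encodes dentin matrix protein 1, an acidic protein that binds calcium and nucleates mineral in dentin and around osteocytes. Dmp1 had 28.7, 32.9 and 25.0 CPM in Arid1a cKO, against 38.3, 12.2 and 16.8 CPM in control. The highest library and both of the lowest were controls. The means were 28.9 ± 3.96 CPM in Arid1a cKO and 22.4 ± 13.9 CPM in control (SD, n = 3 each). The log2 fold change was 0.36 (SE 0.432, edgeR adjusted p = 0.682), and without control replicate 1 it was 1.00 with an edgeR adjusted p of 0.0669. Without control replicate 2 it was 0.08 (edgeR adjusted p = 0.936). Dspp had 158, 104 and 153 times the counts of Dmp1 in Arid1a cKO, against 108, 103 and 258 times in control, so the ratio of the pair overlapped between genotypes as well.

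Ibsp (104299171 to 104311469) encodes bone sialoprotein, a nucleator of hydroxyapatite found in bone and cementum. Ibsp had 79.7, 71.0 and 81.1 CPM in Arid1a cKO, against 70.8, 81.8 and 106 CPM in control. Of the SIBLING genes tested it was the one with the smallest spread among controls, and its groups overlapped (log2 fold change -0.16, SE 0.143, edgeR adjusted p = 0.574). The means were 77.3 ± 5.49 CPM in Arid1a cKO and 86.0 ± 17.8 CPM in control (SD, n = 3 each). Without control replicate 3, its highest library, the log2 fold change was 0.02. Mepe (104325329 to 104338611) encodes a phosphoglycoprotein of osteocytes and odontoblasts whose acidic peptide inhibits mineralization. It had 15, 0 and 2 counts in Arid1a cKO, against 0, 1 and 5 counts in control, too few to pass the filter, so it was not tested.

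Spp1 (104435118 to 104441050) encodes osteopontin, which inhibits crystal growth, binds integrins and is also made by macrophages and osteoclasts. Its level was 63.1, 55.2 and 61.3 CPM in Arid1a cKO, against 31.8, 54.0 and 93.0 CPM in control. The Arid1a cKO libraries stood close together, and the controls reached below and above them. The means were 59.9 ± 4.13 CPM in Arid1a cKO and 59.6 ± 31.0 CPM in control (SD, n = 3 each), a log2 fold change of 0.01 (SE 0.377, edgeR adjusted p = 0.993). Its sign turned without control replicate 1 (-0.29), control replicate 2 (-0.05) or Arid1a cKO replicate 1 (-0.03). Summed macrophage markers (7 genes) were 537 to 843 CPM in Arid1a cKO and 446 to 623 CPM in control, and summed osteoclast markers (8 genes) were 98.6 to 142 CPM in Arid1a cKO and 112 to 141 CPM in control. Their part in the Spp1 level was not tested.

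**Figure D1:**
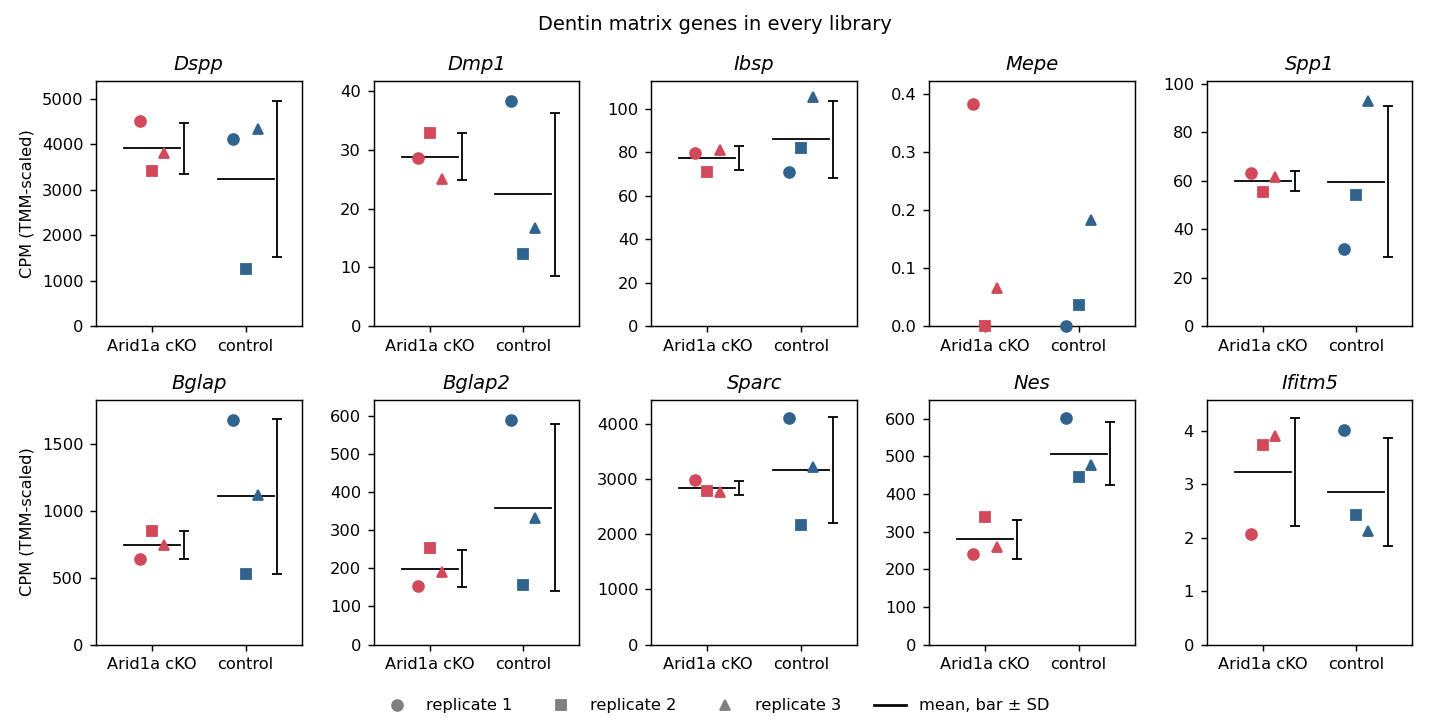
Level of each of the 10 genes in CPM on TMM-scaled library sizes (y axes start at 0 and differ) in 3 Arid1a cKO and 3 control libraries; symbols mark replicates, lines the mean and bars ± SD (none for Mepe, which was not tested). The 3 Nes values of Arid1a cKO, 240.2 to 339 CPM, lie below all 3 controls, 444 to 601 CPM, and the other tested genes overlap.

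As a group, the 4 tested SIBLING genes gave 0 calls and a median log2 fold change of 0.14. Among all genes tested 3.96% were called, and the median was 0.0043. The chromosome around the SIBLING genes gave 0 calls too. With so few genes, 0 calls lies near the share of all genes. Within 500 kb on either side of the cluster, 12 other genes were tested, with a median log2 fold change of 0.14. Thoc2l had the smallest p of these, at 42.2, 48.1 and 47.5 CPM in Arid1a cKO against 55.0, 58.8 and 50.7 CPM in control (log2 fold change -0.26, edgeR adjusted p = 0.115). Abcg3, an ABC transporter gene, came next (log2 fold change 0.61, edgeR adjusted p = 0.131).

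Bglap (chromosome 3, 88383501 to 88384464, minus strand) and Bglap2 (88377736 to 88378699, minus strand) encode osteocalcin, a small protein that binds calcium through carboxylated glutamates and marks mature osteoblasts and odontoblasts. Bglap had 639, 850.2 and 742 CPM in Arid1a cKO, against 1683, 524 and 1117 CPM in control. Bglap2 had 155, 253 and 191 CPM in Arid1a cKO, against 591, 156 and 333 CPM in control. In both genes control replicates 1 and 3 were above every Arid1a cKO library, while control replicate 2 was among the lowest libraries, so the groups overlapped. The means of Bglap were 744 ± 106 CPM in Arid1a cKO and 1108 ± 579 CPM in control (SD, n = 3 each), with a log2 fold change of -0.57 (SE 0.401, edgeR adjusted p = 0.453). Those of Bglap2 were 199.7 ± 49.7 CPM in Arid1a cKO and 359.9 ± 219 CPM in control (SD, n = 3 each). For Bglap2 the log2 fold change was -0.85 (SE 0.494, edgeR adjusted p = 0.377).

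Summing the 3 osteocalcin genes to 1 row, which avoids the split of shared reads, gave a log2 fold change of -0.65 (edgeR adjusted p = 0.420). Bglap held 79.0%, 75.4% and 77.8% of the osteocalcin counts in Arid1a cKO, against 71.7%, 75.1% and 75.2% in control. Bglap2 held 19.1%, 22.4% and 20.1% in Arid1a cKO, against 25.2%, 22.4% and 22.4% in control. The values rested on single controls. Without control replicate 1 the log2 fold change was -0.14 for Bglap (edgeR adjusted p = 0.860) and -0.29 for Bglap2 (edgeR adjusted p = 0.727). Without control replicate 2 it was -0.90 for Bglap (edgeR adjusted p = 0.0859) and -1.20 for Bglap2 (edgeR adjusted p = 0.155). Bglap3 itself had 15.4, 24.9 and 21.0 CPM in Arid1a cKO, against 73.2, 17.3 and 35.5 CPM in control, the order of libraries being that of Bglap2 among the controls (log2 fold change -1.04, SE 0.548, edgeR adjusted p = 0.338).

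Sparc (chromosome 11, 55394500 to 55423183, minus strand) encodes osteonectin, which binds collagen and mineral and is made by many mesenchymal and endothelial cells. Its level was 2988, 2777 and 2768 CPM in Arid1a cKO, against 4107, 2171 and 3219.6 CPM in control. All 3 Arid1a cKO libraries lay between control replicates 2 and 3 (log2 fold change -0.15, SE 0.213, edgeR adjusted p = 0.723). Its means were 2844 ± 125 CPM in Arid1a cKO and 3166 ± 969 CPM in control (SD, n = 3 each). Without control replicate 1 its log2 fold change was 0.08. Sparc varied by 1.08-fold between the Arid1a cKO libraries and 1.89-fold between the controls.

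Nes (chromosome 3, 87971078 to 87980451, plus strand) encodes nestin, an intermediate filament protein of odontoblasts that is also found in neural progenitors, endothelial cells, pericytes and Schwann cells. Its level was 240.2, 339 and 259 CPM in Arid1a cKO replicates 1 to 3, against 601, 444 and 477 CPM in control replicates 1 to 3. Every Arid1a cKO library was below every control. The means were 279 ± 52.3 CPM in Arid1a cKO and 507 ± 82.9 CPM in control (SD, n = 3 each), 1.82-fold lower in Arid1a cKO (log2 fold change -0.86, SE 0.163, edgeR adjusted p = 0.0359). The call depended on which library was left out. It held without Arid1a cKO replicate 2 (edgeR adjusted p = 0.0296). It was lost without any other 1 library, with edgeR adjusted p of 0.0588 to 0.118 and log2 fold changes of -0.72 to -0.93.

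Markers of 3 other cell types that make nestin were measured beside it, and each was above 0 in every library. The summed level of 5 endothelial markers was 262 to 341 CPM in Arid1a cKO and 297 to 332 CPM in control, with 0 of the 5 called. The sum of 5 pericyte and smooth muscle markers was 749 to 956 CPM in Arid1a cKO and 893 to 948 CPM in control, where Notch3 fell (log2 fold change -0.43, edgeR adjusted p = 0.0139) and Myh11 rose (log2 fold change 0.80, edgeR adjusted p = 0.0463). The genotypes lay apart in all 5 of these markers and in 29.1% of all genes tested, and the signs were mixed. The share called in either direction was 3.96% among all genes tested. Like Nes, Notch3, Rgs5 (-0.41) and Cspg4 (-0.20) were lower in every Arid1a cKO library, while Myh11 and Acta2 (0.72) were higher. Rgs5, Cspg4 and Acta2 did not pass the test. The list does not separate pericytes from smooth muscle. Leaving out control replicate 3 or Arid1a cKO replicate 3 ended the Notch3 call (edgeR adjusted p up to 0.0585), and leaving out any 1 library ended that of Myh11 (0.0724 to 0.0984). The sum of 5 Schwann cell markers ran the other way from Nes, at 100.5 to 167 CPM in Arid1a cKO and 21.6 to 85.0 CPM in control, with 0 of the 5 called. The part of these cells in the Nes level was not tested.

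Ifitm5 (chromosome 7, 140948958 to 140950291, minus strand) encodes a membrane protein of osteoblasts. Its level was low, at 2.06, 3.74 and 3.89 CPM in Arid1a cKO, against 4.02, 2.43 and 2.12 CPM in control. Each genotype held both high and low libraries, with means of 3.23 ± 1.01 CPM in Arid1a cKO and 2.85 ± 1.02 CPM in control (SD, n = 3 each; log2 fold change 0.17, SE 0.326, edgeR adjusted p = 0.806). The log2 fold change was 0.51 without control replicate 1 and 0.0034 without control replicate 3. Among bone cell markers, Sost, which osteocytes secrete to restrain Wnt signalling, had 5.86, 10.4 and 8.28 CPM in Arid1a cKO, against 2.74, 2.83 and 2.88 CPM in control, and it rose (log2 fold change 1.54, edgeR adjusted p = 0.0156). That call was lost without control replicate 1, control replicate 3 or Arid1a cKO replicate 3 (edgeR adjusted p up to 0.0616). Fgf23, a hormone of osteocytes, was at or below 0.108 CPM in every library. The 7 bone cell markers, some of which odontoblasts also express, summed to 894 to 1002 CPM in Arid1a cKO and 912 to 1279 CPM in control.

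**Figure D2:**
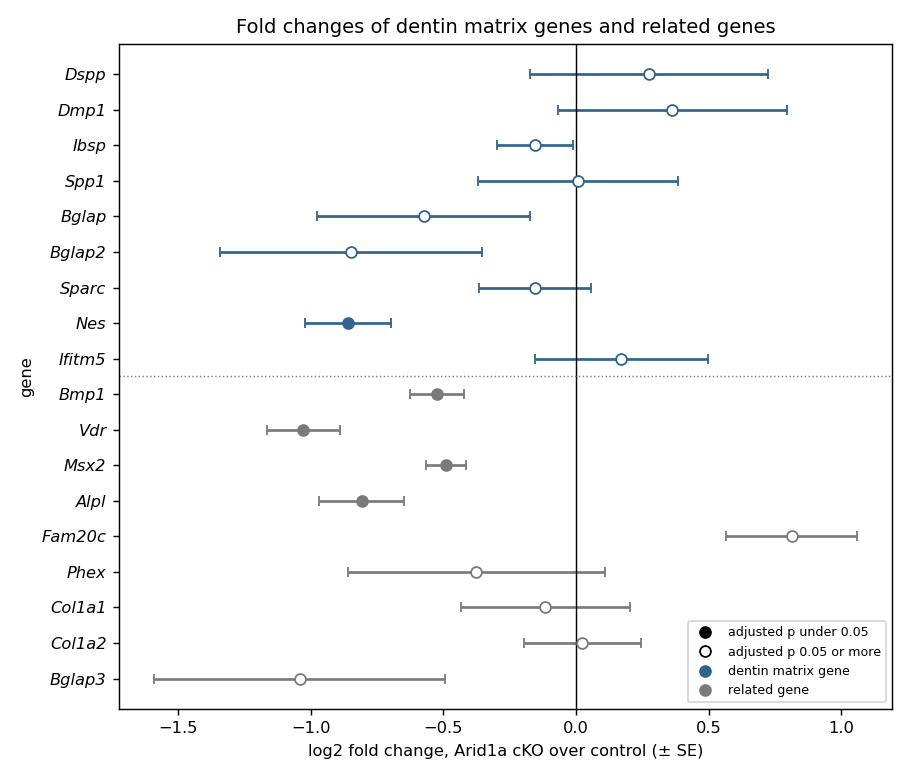
Log2 fold change of Arid1a cKO over control with its SE (x axis) for the 9 tested genes (blue, above the dotted line) and 9 related genes (grey), from the edgeR fit on 3 libraries per genotype; filled points have an adjusted p under 0.05. Nes (-0.86) is filled, and the nearby Bglap2 (-0.85) is open, with an SE of 0.494 against 0.163. The related genes are a selection and not whole lists. Their lists gave 1 call among 12 processing enzymes, 2 among 12 transcription factors and 1 among 17 other mineralizing genes, all drawn here.

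The level of each gene per kb of exon sets their order. In Arid1a cKO, Bglap came first at 1203 ± 171 CPM per kb, followed by Dspp at 884 ± 127, Sparc at 751 ± 33.0 and Bglap2 at 424 ± 106 CPM per kb (SD, n = 3). The libraries of Bglap lay above those of Dspp, those of Dspp and Sparc overlapped, and those of Sparc lay above those of Bglap2. Nes, Ibsp and Spp1 followed far below, at 43.5, 37.4 and 36.3 CPM per kb with overlapping libraries. Dmp1 at 10.4, Ifitm5 at 4.22 and Mepe at 0.0888 CPM per kb were lowest. In control the first 4 were Bglap at 1792 ± 938, Sparc at 836 ± 256, Bglap2 at 764 ± 464 and Dspp at 731 ± 387 CPM per kb (SD, n = 3). Bglap was first within each of the 6 libraries, while the order of the other 3 genes differed from control to control. In Arid1a cKO replicate 1 the lead was small, at 1034 CPM per kb for Bglap against 1020 for Dspp. The places of Bglap and Bglap2 rest on the split of their shared reads, which is uncertain.

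Together the 10 genes took 0.903%, 0.760% and 0.806% of all counts in Arid1a cKO replicates 1 to 3, against 1.08%, 0.475% and 0.972% in control replicates 1 to 3. Their summed level was 8154 ± 494 CPM in Arid1a cKO and 8550.1 ± 3419 CPM in control (SD, n = 3 each), a ratio of 0.954. Dspp made up 51.9%, 43.8% and 48.0% of that sum in Arid1a cKO, against 36.6%, 26.8% and 44.7% in control. Set against Nes, Dspp had 18.8, 10.1 and 14.7 times the counts in Arid1a cKO, against 6.86, 2.84 and 9.09 times in control. These 2 ratios were chosen after the values were seen and were not tested. The share of Dspp overlapped between genotypes, and its ratio to Nes did not.

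The spread between controls was wide for most of the set. Control replicate 2 held the lowest value of 4 of the 9 tested genes and the highest of 0. Control replicate 1 held the highest value of 6 and the lowest of 2. Over all genes tested, control replicate 2 was lowest in 19.1% and control replicate 1 was highest in 19.8%. The SD of log2 CPM was 0.204 in Arid1a cKO and 1.01 in control for Dspp. It was 0.198 in Arid1a cKO and 0.848 in control for Dmp1, and 0.101 in Arid1a cKO and 0.774 in control for Spp1.

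**Figure D3:**
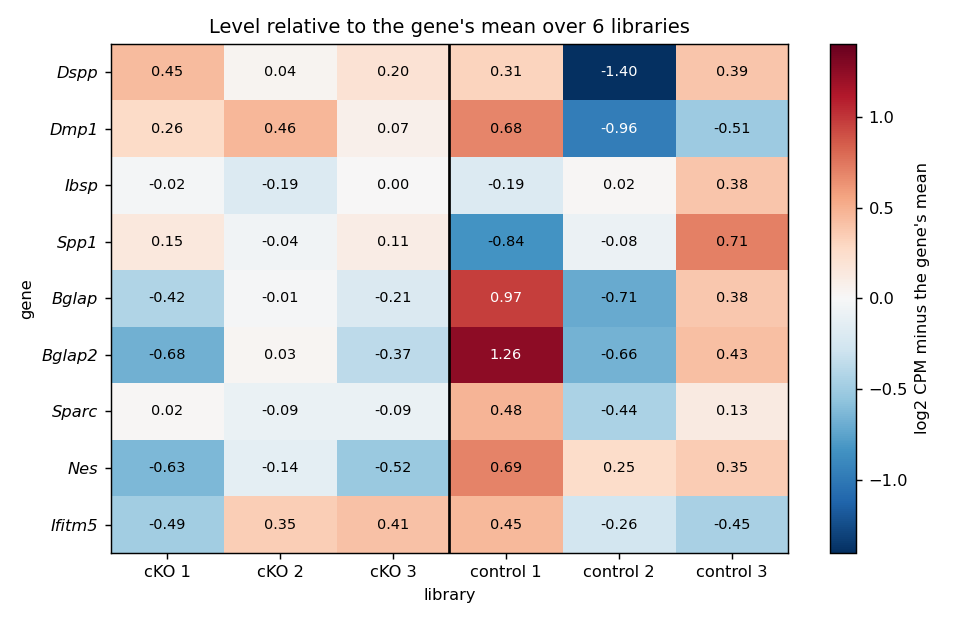
Log2 CPM of each of the 9 tested genes minus its mean over the 6 libraries (colour and number), with Arid1a cKO libraries left of the line and controls right of it. Control replicate 2 is low for Dspp, Dmp1 and the osteocalcin genes, and control replicate 1 is high for the osteocalcin genes and low for Spp1.

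In 7 of the 9 genes the SD was smaller in Arid1a cKO than in control, against 48.1% of all genes tested. The trait was not particular to this set. The SD was smaller in Arid1a cKO in 13 of 17 other genes of odontoblasts and mineralization and in 10 of 12 processing enzymes. It was smaller in 8 of 12 transcription factors of odontoblasts and osteoblasts, and in 2 of 11 receptors and binding partners. The median SD of the 9 genes was 0.204 in Arid1a cKO and 0.774 in control, and that of all genes tested was 0.138 in Arid1a cKO and 0.133 in control. Ranked among the 11220 genes with a mean of at least 10 CPM, the control SD of Dspp stood at the percentile 99.7, that of Bglap2 at 99.6, those of Dmp1 and Bglap at 99.5, that of Spp1 at 99.4, that of Sparc at 98.0, that of Ibsp at 94.1 and that of Nes at 90.3. The SD in Arid1a cKO stood at 95.9 for Bglap2, 91.4 for Nes, 86.3 for Bglap, 86.1 for Dspp, 85.2 for Dmp1, 56.8 for Ibsp, 54.6 for Spp1 and 28.3 for Sparc. Nes and Ifitm5 were the exceptions, with SDs of 0.260 and 0.501 in Arid1a cKO and 0.229 and 0.476 in control. What sets the controls apart from each other was not tested. The median level of the 9 genes relative to their means was -0.44 on the log2 scale in control replicate 2, 0.48 in control replicate 1 and 0.38 in control replicate 3, and it lay between -0.02 and 0.00 in the Arid1a cKO libraries.

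**Figure D4:**
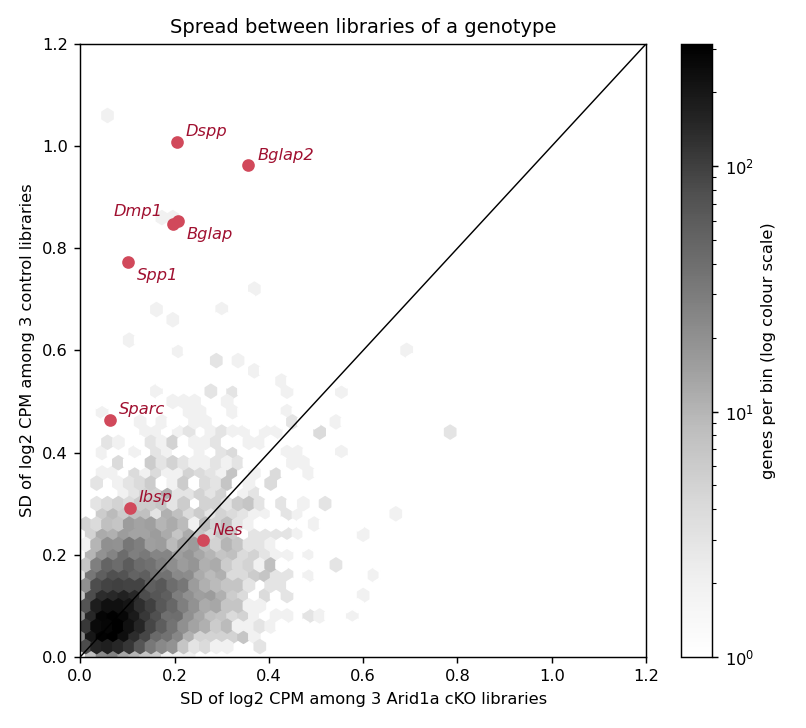
SD of log2 CPM among the 3 Arid1a cKO libraries (x axis) and among the 3 control libraries (y axis) for genes with a mean of at least 10 CPM; grey bins count genes on a log colour scale, 44 of 11220 genes lie beyond the axes, and red points are the 8 dentin matrix genes that reach that level. Dspp, Bglap2, Bglap, Dmp1 and Spp1 have control SDs of 0.774 to 1.01 and lie far above the diagonal line of equal spread, and Nes lies just under it.

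The genes did not follow 1 shared pattern across libraries. The closest profiles were those of Bglap and Bglap2, with a root mean square difference of 0.172 on the log2 scale over the 6 libraries, which share reads as given above. Ibsp and Spp1 differed by 0.314, Bglap and Sparc by 0.316, and Dspp and Dmp1 by 0.475. The farthest apart were Spp1 and Bglap2, at 0.977. Bglap had 10.1, 15.4 and 12.1 times the counts of Spp1 in Arid1a cKO, against 53.0, 9.71 and 12.01 times in control, so control replicate 1 alone stood apart.

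Among 10389 genes compared by the same measure, Cpz was closest to Dspp (0.209), ahead of Ccdc194 (0.213), Pla2g5 (0.243) and Rpl29 (0.277). Closest to Spp1 were Abi3bp (0.202), Ston2 (0.203), Tmem267 (0.227) and Rgma (0.241). Closest to Nes were Cd1d1 (0.0407), Adamts12 (0.0414), Tlr3 (0.0471) and Khdrbs3 (0.0617). Their log2 fold changes were -0.92, -0.90, -0.92 and -0.80. A profile chosen for its likeness to Nes holds the same difference between genotypes, so these values are a description and lend the Nes result no support. The 6 libraries are the points of each comparison.

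The enzymes that process these proteins gave 1 call among 12 tested and a median log2 fold change of -0.18. Over all genes tested, 3.96% were called in either direction. Bmp1, the protease that cleaves the DSPP and DMP1 precursors, fell: it had 189, 209 and 187 CPM in Arid1a cKO, against 307, 241 and 293 CPM in control (log2 fold change -0.53, edgeR adjusted p = 0.0350). Its call held without control replicate 2 and was lost without any other 1 library (edgeR adjusted p up to 0.118). Fam20c, the secretory kinase that phosphorylates SIBLING proteins, had 64.8, 52.8 and 58.2 CPM in Arid1a cKO, against 35.5, 21.4 and 43.2 CPM in control. Its groups did not overlap, and it did not pass the test (log2 fold change 0.81, edgeR adjusted p = 0.126). Like Dspp, 6 of these 12 genes were lowest in control replicate 2, against 19.1% of all genes. Among the receptors and binding partners, Itga8, an integrin chain that pairs in receptors for osteopontin, had 44.7, 50.9 and 41.5 CPM in Arid1a cKO, against 55.1, 55.3 and 58.0 CPM in control, and did not pass the test (log2 fold change -0.30, edgeR adjusted p = 0.0870).

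Of 12 transcription factors of odontoblasts and osteoblasts, 2 fell and 0 rose, with a median log2 fold change of -0.18. Over all genes tested, 2.46% were called lower and 1.5% higher. Vdr, the vitamin D receptor, which regulates osteocalcin and osteopontin transcription, had 57.7, 80.0 and 76.5 CPM in Arid1a cKO, against 155, 155 and 128 CPM in control (log2 fold change -1.03, edgeR adjusted p = 0.0162). Msx2, a homeobox factor of the dental mesenchyme, had 173, 171 and 179.9 CPM in Arid1a cKO, against 270.2, 229.7 and 237 CPM in control (log2 fold change -0.49, edgeR adjusted p = 0.0194). Of 17 other genes of odontoblasts and mineralization, 1 fell, 0 rose and the median was -0.02. It was Alpl, the phosphatase that frees phosphate for mineral, at 580.3, 608 and 498 CPM in Arid1a cKO, against 1181, 774 and 999 CPM in control (log2 fold change -0.81, edgeR adjusted p = 0.0379). Slc20a2, a phosphate transporter, came next (log2 fold change -0.81, edgeR adjusted p = 0.0558). The Vdr call was lost without control replicate 1, control replicate 2 or Arid1a cKO replicate 3 (edgeR adjusted p up to 0.0623), and the Msx2 call without control replicate 3, Arid1a cKO replicate 2 or Arid1a cKO replicate 3 (up to 0.0667). The Alpl call was kept without control replicate 2 and lost without any other 1 library (up to 0.118).

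The promoter windows of RefSeq on GRCm38.p6, from 250 bases before to 50 after the annotated start, were matched for 8 of the 10 genes, all but Dspp and Bglap2. The 250 bases before the start are printed 5′ to 3′ for Nes, the gene that passed the test, and for Spp1 and Bglap, whose profiles differed by 0.839 in the measure above. Capitals mark TATAAA and the Runx core ACCACA, each also searched as its reverse complement (TTTATA and TGTGGT), with no overlap between the motifs. Nes lies at chr3:87970843-87971092 on the plus strand, Spp1 at chr5:104434861-104435110 on the plus strand and Bglap at chr3:88384467-88384716 on the minus strand.
Nes: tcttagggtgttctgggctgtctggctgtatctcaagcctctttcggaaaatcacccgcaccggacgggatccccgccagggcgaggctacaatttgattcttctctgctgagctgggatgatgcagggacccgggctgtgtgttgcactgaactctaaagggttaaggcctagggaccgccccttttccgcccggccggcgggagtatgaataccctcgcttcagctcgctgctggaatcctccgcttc
Spp1: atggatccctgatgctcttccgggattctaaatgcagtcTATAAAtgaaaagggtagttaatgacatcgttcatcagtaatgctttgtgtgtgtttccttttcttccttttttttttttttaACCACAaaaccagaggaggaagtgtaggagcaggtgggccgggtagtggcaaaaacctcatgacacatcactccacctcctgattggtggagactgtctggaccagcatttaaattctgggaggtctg
Bglap: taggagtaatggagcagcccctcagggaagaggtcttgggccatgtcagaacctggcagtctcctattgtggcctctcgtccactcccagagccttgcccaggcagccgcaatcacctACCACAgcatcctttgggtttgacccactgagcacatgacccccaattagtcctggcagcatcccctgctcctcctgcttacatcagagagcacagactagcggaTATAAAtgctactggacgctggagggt
The Bglap window holds TATAAA starting 27 bases before the start and ACCACA 132 bases before it. In Spp1 the same letters begin 211 and 128 bases before the start, and the Nes window holds neither. TATAAA on either strand was found in 4 of the 8 windows (Ibsp, Mepe, Spp1 and Bglap) and in 13.6% of 32851 mouse windows of that length. The Runx core was found in 5 (Dmp1, Mepe, Spp1, Bglap and Sparc) and in 16.8% of all windows. The Sparc window starts from a RefSeq start 3103 bases from that of GENCODE. CCAAT or its reverse complement was in 5 of the 8 windows and 37.4% of all, and TAATTA in 1 and 5.29%. These matches describe letters in these windows only.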

How the data were processed

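Total RNA of the proximal incisor was sequenced in 3 Arid1a cKO and 3 control libraries as single-end reads of 75 cycles, per the labels' protocols. Per the submitters' processing notes, the tools were STAR 2.6.1d and Partek, on build mm10. The sources used here do not give the annotation, kit or strandedness. Gm42793 lies on the same strand as Spp1, and Gm45717 on the same strand as Ifitm5, so strand could not separate the reads of these overlapping genes. The authors deposited estimated counts for 25703 genes, of which 54.0% to 57.6% per library lie within 0.01 of a whole number, and a table of normalized signal for 21456 genes. Checked on the values, the deposited signal equals the count plus 1 divided by a factor per library, to within 0.000587% for 99.9% of values. No column of another sample was found.

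Estimated counts were rounded, filtered with filterByExpr (minimum count 10), scaled by TMM (factors 0.961 to 1.04) and tested with edgeR 4.0.16 glmQLFit (robust) and glmQLFTest, two-sided, without covariates, under R 4.3.3. Benjamini-Hochberg adjustment ran over 19613 genes, with a threshold of 0.05. SE is the absolute log2 fold change over the square root of F, and log2 CPM uses a prior count of 2. The common biological coefficient of variation was 15.8%, so for all but the lowest genes the spread between libraries limits precision more than depth. Levels per kb use exon lengths of GENCODE M21. The script was checked on simulated counts. The 10 genes, the lists of related genes and the markers were chosen with earlier results of these data known. The genes named are the 10, Arid1a, from each related list and the neighbourhood those with an adjusted p under 0.05 plus, where fewer than 2 pass, those with the next smallest p, and the 4 closest profiles to Dspp, Spp1 and Nes; marker genes and Bglap3 were named after their values were seen. Gprc6a and Gpr158 of the receptor list are not among the genes analysed here. One result that this rule would name is not reported here. Alternatives were RLE, upper quartile and library total scaling, DESeq2 1.42.0, limma 3.58.1 (voom, and trend on the log2 of the normalized table with pseudocounts 1 and 5), other filters, robust estimation off and each library left out. Chosen after seeing the data were the sum of the 3 osteocalcin genes and removal of GC and length trends (19260 genes). Figures were drawn with matplotlib 3.10.9 under Python 3.11.15.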

Additional observations from a re-analysis of the deposited data

How the results depend on the processing

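No paired analysis was possible because the sample titles of the 2 genotypes share 1 number only; the labels speak of pairs of samples without saying which libraries form a pair, so whether they are paired is not known. Over all alternatives 0 of the dentin matrix genes were called higher, and 1, Nes, was called lower except without Arid1a cKO replicate 1 or 3 or any control, where 0 were; the count so ran from 0 to 1 with 1 library left out. Of 160 values of single genes under the alternatives, 149 kept their direction and side of the threshold, 5 (all of Nes) no longer passed and 6 turned in sign. The 6 were Spp1 without control replicate 1 (-0.29), control replicate 2 (-0.05) or Arid1a cKO replicate 1 (-0.03), Sparc without control replicate 1 (0.084), Dspp without control replicate 2 (-0.10) and Ibsp without control replicate 3 (0.025), and in each of these the fit had fewer samples. Nes ranged from -1.02 to -0.72, with adjusted p of 1.49e-06 by DESeq2 and 0.0446 with GC and length trends removed by edgeR. With 1 library left out, log2 fold changes ran from -0.10 to 0.55 for Dspp, -0.27 to 0.025 for Ibsp, -0.29 to 0.49 for Spp1, -0.90 to -0.14 for Bglap, -1.20 to -0.29 for Bglap2, -0.35 to 0.084 for Sparc and 0.0034 to 0.51 for Ifitm5; over all alternatives Dmp1 ran from 0.08 to 1.00. The 295 genes higher and 482 lower in Arid1a cKO were 812 and 1093 by DESeq2; the cause was not tested. With 1 library left out they were 55 to 193 higher and 98 to 339 lower, from fits with fewer samples. Under the other alternatives they were 259 to 341 and 401 to 490. The ratio of the summed level, 0.954, was 0.976 on library totals and 0.779 to 1.13 with 1 library left out. Depth limits Mepe.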
